A study of Apis mellifera with 18 samples.

Results

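The genes described here encode the receptors through which dopamine, octopamine and serotonin act on cells of the honey bee (Apis mellifera) brain. They were taken by gene name from the deposited tables, as the genes named Dop1, Dop2, Dop3, Oa1 or Tyr1 and those whose name starts with 5-HT and a digit, whatever the case of the letters. The names found were Dop1, Dop3, Oa1, 5-HT1, 5-ht7, 5-HT2alpha and 5-HT2beta, which made 7 genes of the 9939 in the tables, and 5 of the 6760 lncRNA transcripts were listed under 2 of these genes. No gene of these tables carried the name Dop2 or Tyr1, which RefSeq gives as synonyms of DopR2 and TyrR. DopR2 and TyrR were therefore followed as related genes and not counted among the 7.

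Biogenic amine receptors are G protein-coupled receptors. In insects, D1-like dopamine receptors and the 5-HT7 type of serotonin receptor raise cyclic AMP in the cell, D2-like dopamine receptors and the 5-HT1 type lower it, and octopamine receptors of the alpha type and the 5-HT2 type act largely through intracellular calcium. In the honey bee brain, dopamine is known for its part in aversive learning and motor activity, octopamine for its part in reward learning and the passage to foraging, and serotonin for its part in feeding, light responses and learning.

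The study compared brains of young worker bees that were caged on emergence. Control bees (C) received sucrose solution, and treated bees (DT) received the same sucrose solution with dinotefuran, a neonicotinoid insecticide that acts on nicotinic acetylcholine receptors, at 0.01 mg/L. Brains were collected at 1, 5 and 10 d, which gave the 6 groups C_1d, DT_1d, C_5d, DT_5d, C_10d and DT_10d with 3 libraries each, and every library came from pooled brains of several bees. Treatment lasted as long as the age, so age, time in the cage and time on dinotefuran cannot be told apart within DT, nor age and time in the cage within C.

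Values are FPKM, fragments per kilobase of transcript relative to all mapped fragments of the library. Most genes of a library differed from those of the other libraries by a common factor, between 0.539 and 1.81, so each library was divided by the median of its gene ratios, and the resulting scaled FPKM are used below unless FPKM as deposited are named. The tables hold no read counts, so the number of reads behind each gene's value was not recovered, and the spread between libraries is the error used. A change was called when the Benjamini-Hochberg adjusted p of limma, over all 13490 genes and lncRNA transcripts tested, was under 0.05 and the log2 fold change was beyond 1 in size. Fold changes are differences of log2(scaled FPKM + 0.1), which understates changes of low genes. A lower level in pooled tissue can come from fewer cells that express a gene or from less RNA in each of them, and these cannot be told apart here.

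A pair of libraries stood apart from others of their groups. C_1d replicate 1 held 1432 scaled FPKM of Mrjp1, the gene of a major royal jelly protein made in the hypopharyngeal gland, against 30564 and 39732 in C_1d replicates 2 and 3. It held 5220 scaled FPKM of Hbg3, an alpha-glucosidase of the same gland, against 86.2 and 64.4. Both values were nearer to those of the C_5d libraries, which held between 3194 and 4086 of Mrjp1 and between 7519 and 8522 of Hbg3. Whether its label is right was not tested, and every C_1d mean and every comparison that includes C_1d rests in part on it. The changes from 1 d within DT do not include C_1d, though all 18 libraries share an estimate of the spread. C_5d replicate 3 had the highest summed level of 5 neuron markers (Syt1, Syx1A, brp, Para and Cac) of all libraries, 74.0 scaled FPKM, against 54.0 and 50.7 in C_5d replicates 1 and 2, and it was the highest library for 3 of the 7 receptor genes. For part of the results that rest on these libraries, values without them are also given.

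All 7 receptor genes were low-abundance genes that were present in every library. Their 126 values lay between 0.239 and 3.72 scaled FPKM, and none was below 0.1. Averaged over the 18 libraries, 5-HT1 had the highest level with 2.28 scaled FPKM, followed by Dop1 with 1.59, 5-HT2alpha with 1.25, Oa1 with 0.918, 5-HT2beta with 0.760, 5-ht7 with 0.657 and Dop3 with 0.569. The median gene had 4.82 scaled FPKM, and the receptors stood between the 16.9th percentile of all genes (Dop3) and the 32.6th (5-HT1). Neighbours in this order were not clearly separated. The clearest step was that from 5-HT2alpha to Oa1, with the order held in 16 of 18 libraries and a mean difference of 0.334 ± 0.298 scaled FPKM (SD, n = 18). 5-HT2beta was above 5-ht7 in 11 of 18 libraries, and 5-ht7 above Dop3 in 11 of 18, so neither of these steps was beyond its spread. 5-HT1 was above Dop1 in 12 of 18 libraries and Dop1 above 5-HT2alpha in 13 of 18.

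The genes differed in how much they varied. The highest library held 7.44 times the lowest for 5-HT1, 4.70 times for Dop1, 4.60 times for 5-ht7 and 4.05 times for Dop3. For 5-HT2alpha this ratio was 3.24, whereas Oa1 and 5-HT2beta varied least, with 1.83 and 1.77. DT_1d replicate 2 was the lowest library for 5 of the 7 genes, all but 5-ht7 and 5-HT2beta.

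**Figure D1:**
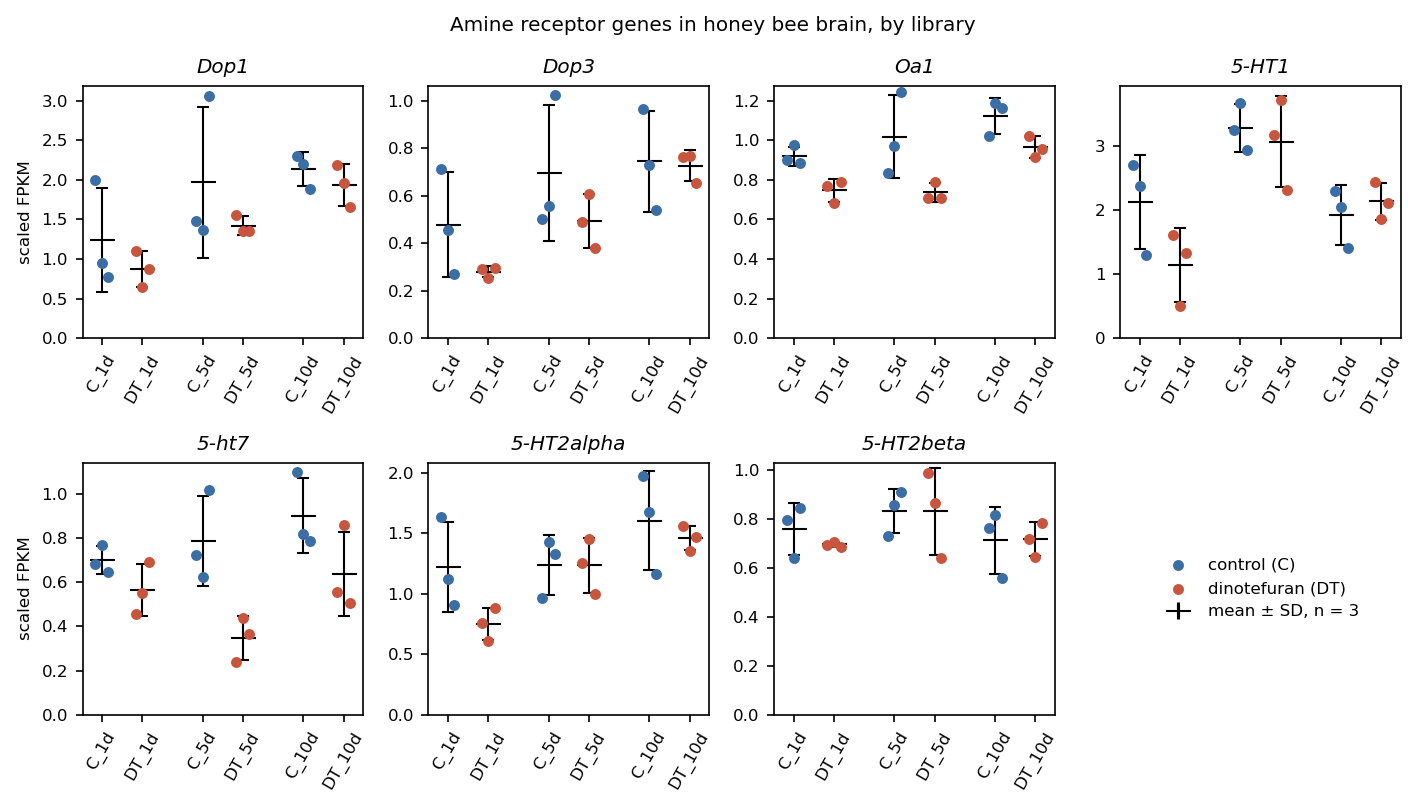
Scaled FPKM (y axis, linear, from 0) of the 7 receptor genes in each of the 18 libraries, by group (x axis); points are libraries, horizontal bars the group means and whiskers the SD (n = 3). The 3 points of 5-ht7 in DT_5d lie between 0.239 and 0.437, all under the C_5d points, and 5-HT1 is higher in both groups at 5 d than in the group of the same treatment at 1 d.

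Dop1, on chromosome 15 (7337783 to 7381156, assembly Amel_HAv3.1) with 4 listed mRNAs, encodes the D1-like dopamine receptor. It had 2.00, 0.950 and 0.775 scaled FPKM in C_1d, and 1.10, 0.652 and 0.871 in DT_1d. At 5 d it had 1.48, 1.36 and 3.06 in C and 1.56, 1.35 and 1.36 in DT. At 10 d it had 2.31, 2.21 and 1.89 in C and 2.18, 1.96 and 1.65 in DT. All DT_10d libraries were above all DT_1d libraries, whereas in C the 1.89 of the lowest 10 d library lay under the 2.00 of C_1d replicate 1. The log2 fold change from 1 d to 10 d was 1.08 (SE 0.32, limma adjusted p = 0.019) in DT and 0.84 (SE 0.32, adjusted p = 0.16) in C, and the difference between these changes was 0.24 (95% interval -0.72 to 1.19, adjusted p = 0.841). Without C_1d replicate 1 this difference was -0.14 (adjusted p = 0.899), in the other direction.

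Dop3, on chromosome 9 (10181294 to 10324139) with 5 mRNAs, encodes the D2-like dopamine receptor, which couples in the opposite direction to Dop1. It had 0.711, 0.454 and 0.270 scaled FPKM in C_1d and 0.290, 0.253 and 0.296 in DT_1d. At 5 d the values were 0.504, 0.558 and 1.02 in C and 0.487, 0.608 and 0.382 in DT. At 10 d they were 0.963, 0.729 and 0.541 in C and 0.761, 0.767 and 0.652 in DT. As for Dop1, the DT_1d libraries did not overlap with the DT_10d libraries, and C_1d replicate 1 was the highest of its group. The change from 1 d to 10 d in DT was 1.12 on the log2 scale (SE 0.30, adjusted p = 0.012), against 0.59 (SE 0.30, adjusted p = 0.303) in C, with a difference of 0.53 (95% interval -0.38 to 1.44, adjusted p = 0.601). Without C_1d replicate 1 the difference was 0.25 (adjusted p = 0.816).

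Dop1 and Dop3 thus rose with age in treated bees by the threshold used, and the share of all features called in that comparison was 14.3%. Among the 7 receptors 2 were called, both higher, and all 7 had a positive change, with a median of 0.89 against 0.01 for all genes. The share of features called higher was 7.26%. 5 of the 7 receptors were higher in every DT_10d library than in every DT_1d library, as were 31.3% of the genes tested. Between C_10d and C_1d this held for 2 of the 7 (Oa1 and 5-ht7) and for 8.07% of the genes tested. Scaled to neuron markers, 3 of the 7 changes in DT were negative, and with quantile normalization 2 of the 7 were. In controls 0 of 7 were called by limma between 1 d and 10 d (0.986% of features), and 1, Dop1, had an unadjusted p under 0.05 (19.3% of features). Without C_1d replicate 1, the change of Dop1 in C was 1.22 (adjusted p = 0.0083) and passed the threshold, as did 8.78% of features, and that of Dop3 was 0.87 (adjusted p = 0.061). The calls in DT depended on the scaling and the pseudocount. Scaled to neuron markers, the change in DT was 0.43 for Dop1 (adjusted p = 0.216) and 0.56 for Dop3 (adjusted p = 0.092), and neither was called. With quantile normalization the changes were 0.95 and 0.98, just under the limit, and with a pseudocount of 1 they were 0.65 and 0.43. The call of Dop1 was also lost without DT_1d replicate 2 (0.90, adjusted p = 0.082), without DT_10d replicate 1 (0.99, adjusted p = 0.065) and without DT_10d replicate 2 (1.06, adjusted p = 0.0501), whereas Dop3 was called whichever of the 6 DT libraries was left out. The ratio of Dop1 to Dop3 within a library does not depend on the scaling. It was 2.85 ± 0.459 over the 18 libraries (SD), with 2.09 in the lowest library and 3.79 in the highest, and the ranges of all 6 groups overlapped.

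With both treatments joined, the change from 1 d to 10 d was 0.96 (SE 0.22, adjusted p = 0.0047) for Dop1 and 0.86 (SE 0.21, adjusted p = 0.0071) for Dop3, and 5-HT2alpha, at 0.63 (SE 0.17, adjusted p = 0.011), was the third receptor with an adjusted p under 0.05. The fold changes of these 3 genes stayed below the limit of 1, so 0 of 7 receptors were called against 8.73% of features, and 32.7% of features had an adjusted p under 0.05 without the limit. 4 of the 7 had an unadjusted p under 0.05 (43% of features), the fourth being Oa1. In DT alone 4 of the 7 did (41.8%). Without C_1d replicate 1 the change of Dop1 was 1.15 (adjusted p = 0.00028) and was called.

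Markers of several cell types moved with age. Those of neurons were higher at later ages, as were Dop1 and Dop3. Their summed level was between 39.4 and 45.8 scaled FPKM in the 6 libraries at 1 d, between 44.0 and 74.0 at 5 d, and between 52.4 and 71.3 at 10 d. When libraries were scaled to these 5 markers in place of all genes, the 1 d to 10 d change over both treatments was 0.42 for Dop1 (adjusted p = 0.079), 0.38 for Dop3 (adjusted p = 0.092) and 0.10 for 5-HT2alpha (adjusted p = 0.634). The summed level of 6 gland markers (Mrjp1, Mrjp2, Mrjp3, Mrjp4, Mrjp7 and Hbg3) went the other way, from between 7348 and 101148 scaled FPKM at 1 d to between 909 and 8952 at 10 d, and none of these markers was at 0 in any library. Hbg3 did not follow this sum in C, with 5220, 86.2 and 64.4 in C_1d and 3329, 8918 and 6124 in C_10d. The summed level of 4 opsin genes of photoreceptors (Lop1, Lop2, Uvop and Blop) was between 272 and 692 at 1 d and between 523 and 846 at 10 d. C_1d replicate 1 held the 692, against 289 and 272 in the other C_1d libraries, and was also the highest C_1d library for Dop1 and Dop3. The summed level of 7 muscle troponin genes was between 625 and 1401 at 1 d and between 461 and 652 at 10 d. TpnCIIIa and TpnCIIIb did not follow this sum in C, TpnCIIIa with 239, 198 and 267 in C_1d and 270, 192 and 297 in C_10d. That of 5 fat body genes (Vg, Hex70a, HEX70b, Hex70c and Hex110) was between 12.4 and 75.1 at 1 d and between 5.30 and 15.8 at 10 d. C_1d replicate 1 held the lowest 1 d sum of gland, muscle and fat body markers. Of the fat body markers Hex70c was at 0, in 1 library of DT_10d. The summed level of 2 glia markers (Eaat-2 and GlnS) was between 389 and 506 in DT_1d and between 318 and 336 in DT_10d, and overlapped between these ages in C. Eaat-2 went the other way in DT, with 22.7, 19.4 and 18.6 in DT_1d and 27.7, 25.4 and 27.8 in DT_10d. The part of these tissues in the receptor values was not tested.

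**Figure D2:**
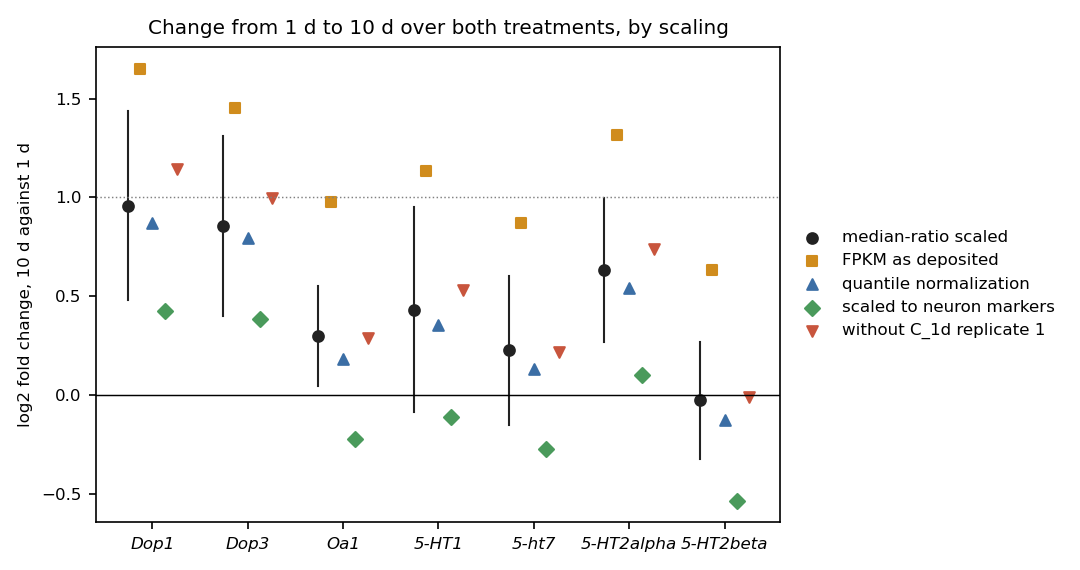
Log2 fold change from 1 d to 10 d over both treatments (y axis) of the 7 receptor genes (x axis) under 4 scalings and without C_1d replicate 1; vertical lines are 95% intervals of the median-ratio scaled values and the dotted line marks the limit of 1. Dop1, Dop3 and 5-HT2alpha are positive under every scaling shown. When scaled to neuron markers, 5-HT1, 5-ht7, Oa1 and 5-HT2beta are negative, 5-HT2beta most so at -0.54. On the median-ratio scaled values 5-HT2beta is at -0.03.

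5-HT1, on chromosome 13 (4679854 to 4786005) with 6 mRNAs, encodes the serotonin receptor that lowers cyclic AMP. It had 2.71, 2.37 and 1.30 scaled FPKM in C_1d and 1.62, 0.4998 and 1.33 in DT_1d. At 5 d the values were 3.26, 3.67 and 2.94 in C and 3.18, 3.72 and 2.31 in DT. At 10 d they were 2.31, 2.06 and 1.41 in C and 2.44, 1.86 and 2.11 in DT. In each treatment the 5 d libraries were all above the 1 d libraries, and in C they were also all above the 10 d libraries. All 5 d libraries were above all 1 d libraries for 8.58% of the genes tested in C and for 16.1% in DT. In DT this also held for Dop1, Dop3 and 5-HT2alpha, whereas in C 5-HT1 was the only such receptor gene. In C all 10 d libraries were below all 5 d libraries for 8.32% of the genes tested. The group means of 5-HT1 were highest at 5 d, with 3.29 ± 0.370 in C_5d and 3.07 ± 0.710 in DT_5d (SD, n = 3).

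The change of 5-HT1 from 1 d to 5 d over both treatments was 1.06 (SE 0.24, adjusted p = 0.010) and was called, the only receptor of 7 called in that comparison, where 4.21% of features were called. An unadjusted p under 0.05 was found for 3 of 7 (5-HT1, Dop1 and Dop3) and for 29.3% of features. Scaled to neuron markers it was 0.73 (adjusted p = 0.032), below the limit of 1. It also fell below this limit without C_1d replicate 3 (0.91), without DT_1d replicate 2 (0.83) and without DT_5d replicate 2 (0.98). From 5 d to 10 d the change was -0.62 (SE 0.24, adjusted p = 0.148), and 0 of 7 receptors were called by limma there (1.76% of features), with an unadjusted p under 0.05 for 2 of them, 5-HT1 and 5-ht7 (21.6% of features).

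The DT against C difference of 5-HT1 at 1 d was -0.91 (SE 0.34, 95% interval -1.64 to -0.18, adjusted p = 0.505), the largest of the 7 receptors at that age, and did not pass the threshold. Without DT_1d replicate 2, its lowest library, the difference was -0.45 (adjusted p = 0.688) and no longer the largest of the 7. Its age course gave the largest difference between the treatments among the 7 estimates. Its change from 1 d to 10 d was 0.97 (SE 0.34, adjusted p = 0.044) in DT and -0.10 (SE 0.34, adjusted p = 0.907) in C, and without DT_1d replicate 2 the change in DT was 0.51 (adjusted p = 0.229). The difference between these changes was 1.07 (95% interval 0.04 to 2.11, unadjusted p = 0.043, adjusted p = 0.363) and did not pass the threshold. It was 0.61 (adjusted p = 0.566) without DT_1d replicate 2. Without C_1d replicate 1 the change in C was 0.09. Of the 7 receptors 0 were called for this difference by limma, against 0.274% of features, and 5-HT1 alone had an unadjusted p under 0.05 (13.2% of features).

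5-ht7, on chromosome 6 (633583 to 1032488), had the longest locus of the 7 with 398.9 kb and 6 mRNAs, and encodes the serotonin receptor that raises cyclic AMP. It had 0.682, 0.771 and 0.646 scaled FPKM in C_1d and 0.457, 0.551 and 0.691 in DT_1d. At 5 d it had 0.724, 0.626 and 1.02 in C, and 0.239, 0.437 and 0.364 in DT. At 10 d it had 1.10, 0.818 and 0.789 in C, and 0.555, 0.858 and 0.504 in DT. The 3 DT_5d libraries were the 3 lowest of all 18 and did not overlap with C_5d, whereas single DT libraries reached into the control range at 1 d and at 10 d.

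The DT against C difference of 5-ht7 at 5 d was -0.99 on the log2 scale (SE 0.25, 95% interval -1.53 to -0.46), the largest of the 7 receptors at that age, with an adjusted p of 0.064 that did not pass the threshold. The difference was -0.28 (SE 0.25, adjusted p = 0.678) at 1 d and -0.46 (SE 0.25, adjusted p = 0.513) at 10 d. Over all ages it was -0.58 (SE 0.15, 95% interval -0.88 to -0.27, adjusted p = 0.062). Leaving out single libraries of the comparison moved the 5 d value between -1.14 and -0.81 and its adjusted p between 0.046 and 0.242, and the value without C_5d replicate 2 was called (-1.13, adjusted p = 0.046). Without C_5d replicate 3, in which neuron markers were highest, the difference was -0.82 (adjusted p = 0.242). Scaled to neuron markers it was -0.79 (adjusted p = 0.104). Gland markers were also higher in DT_5d, with summed levels between 43797 and 73820 scaled FPKM against 12669 to 13437 in C_5d. Of these markers the 5 Mrjp genes were higher in every DT_5d library, whereas Hbg3 was lower, with 3244 to 4325 against 7519 to 8522. The summed level of fat body markers was higher too, with 29.9 to 35.0 against 15.6 to 22.9. Hex70a, Hex70c and Hex110 were higher in every DT_5d library, whereas HEX70b and Vg overlapped. Vg had 6.50, 6.14 and 5.82 in DT_5d against 6.64, 6.38 and 5.72 in C_5d. The summed level of photoreceptor markers was lower, with 291 to 411 against 461 to 550. Lop1 and Uvop were lower in every DT_5d library, and Blop overlapped. Lop2 went the other way, with 11.8, 12.4 and 11.3 in DT_5d against 9.54, 9.02 and 9.16 in C_5d. The summed level of neuron markers was also lower, with 44.0 to 49.0 against 50.7 to 74.0, the last in C_5d replicate 3. Syx1A alone was lower in every DT_5d library, whereas Syt1, brp, Para and Cac overlapped. The part of these tissues in the difference was not tested. Whether the treatment labels of the 5 d libraries are right was not tested either, and every DT against C value at 5 d rests on them.

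Oa1, on chromosome 15 (3310369 to 3326664) with 1 mRNA, encodes an octopamine receptor of the alpha type. It had 0.899, 0.974 and 0.885 scaled FPKM in C_1d and 0.768, 0.682 and 0.788 in DT_1d. At 5 d it had 0.834, 0.972 and 1.25 in C and 0.708, 0.790 and 0.710 in DT. At 10 d it had 1.02, 1.19 and 1.16 in C, and 1.02, 0.915 and 0.957 in DT. Every DT library was below every C library at 1 d and at 5 d, and the groups overlapped at 10 d. The size of the difference was small and did not pass the threshold at any age, with -0.27 (SE 0.17, adjusted p = 0.562) at 1 d, -0.40 (SE 0.17, adjusted p = 0.205) at 5 d and -0.20 (SE 0.17, adjusted p = 0.711) at 10 d. Without C_5d replicate 3, the highest library for Oa1, the 5 d difference was -0.26 (adjusted p = 0.553). Over all ages it was -0.29 (SE 0.10, 95% interval -0.50 to -0.08, adjusted p = 0.138). Without both C_1d replicate 1 and C_5d replicate 3 it was -0.25 (adjusted p = 0.185).

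The 2 genes of the 5-HT2 type encode receptors that act through intracellular calcium. 5-HT2alpha, on chromosome 9 (8766576 to 8797600) with 6 mRNAs, had 1.63, 1.12 and 0.909 scaled FPKM in C_1d and 0.761, 0.609 and 0.881 in DT_1d. At 5 d it had 0.961, 1.43 and 1.33 in C and 1.25, 1.45 and 1.00 in DT. At 10 d it had 1.97, 1.68 and 1.16 in C and 1.56, 1.35 and 1.47 in DT. The DT_1d libraries lay under all C_1d libraries and under all DT_5d and DT_10d libraries. The DT against C difference at 1 d was -0.61 (SE 0.24, adjusted p = 0.505) and without C_1d replicate 1 it was -0.40 (adjusted p = 0.85), while the change from 1 d to 10 d in DT was 0.89 (SE 0.24, adjusted p = 0.013), under the limit of 1.

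5-HT2beta, on chromosome 10 (5304754 to 5424158) with 3 mRNAs, had the smallest ratio of highest to lowest library on the scaled values. Its lowest value was 0.558 scaled FPKM, in C_10d replicate 3, and its highest 0.989, in DT_5d replicate 1, and the 6 group means lay between 0.697 (DT_1d) and 0.834 (C_5d). None of its comparisons of the scaled values gave an unadjusted p under 0.05. Its change from 1 d to 10 d over both treatments was -0.03 (95% interval -0.33 to 0.27). That change depended on the scaling, with -0.54 when scaled to neuron markers (adjusted p = 0.0088, under the limit of 1) and 0.63 with FPKM as deposited. Its DT against C difference over all ages was -0.03 (95% interval -0.28 to 0.21). The ratio of 5-HT2alpha to 5-HT2beta within a library was 1.08 ± 0.210 in DT_1d and 1.62 ± 0.496 in C_1d, and 2.04 ± 0.155 and 2.24 ± 0.297 in DT_10d and C_10d (SD, n = 3).

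Across the treatment comparisons, 0 of 7 receptors were called by limma at 1 d (0.0667% of features), at 5 d (0.645%), at 10 d (0.697%) or over all ages (0.304%). An unadjusted p under 0.05 was found for 2 at 1 d (5-HT1 and 5-HT2alpha, 9.7% of features), 2 at 5 d (19.3%) and 2 over all ages (18.8%), both times 5-ht7 and Oa1, and for 0 at 10 d (12%). All 7 had a lower estimate in DT than in C at 1 d, with a median of -0.38 on the log2 scale, 6 of 7 at 5 d, with a median of -0.35 (4 of 7 when scaled to neuron markers, and 4 of 7 with a median of -0.11 without C_5d replicate 3), and 5 of 7 at 10 d, with a median of -0.10 (1 of 7, 5-ht7, with FPKM as deposited). The medians of all genes were -0.02 at 1 d and 0.00 at 5 and 10 d on the scaled values. The same control libraries enter all 7 values of an age. Single values depended on the libraries that stood apart. Without C_1d replicate 1 the 1 d value of Dop1 was -0.0035 in place of -0.38 and that of Dop3 was -0.26 in place of -0.54, and without C_5d replicate 3 the 5 d value of Dop1 was 0.0010 in place of -0.35 and that of Dop3 -0.11 in place of -0.39. At 1 d, 2 of 7 receptors (Oa1 and 5-HT2alpha) were lower in every DT library than in every C library, as were 9.54% of the genes tested, and at 5 d 2 of 7 (Oa1 and 5-ht7), as were 12.4% of the genes tested.

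**Figure D3:**
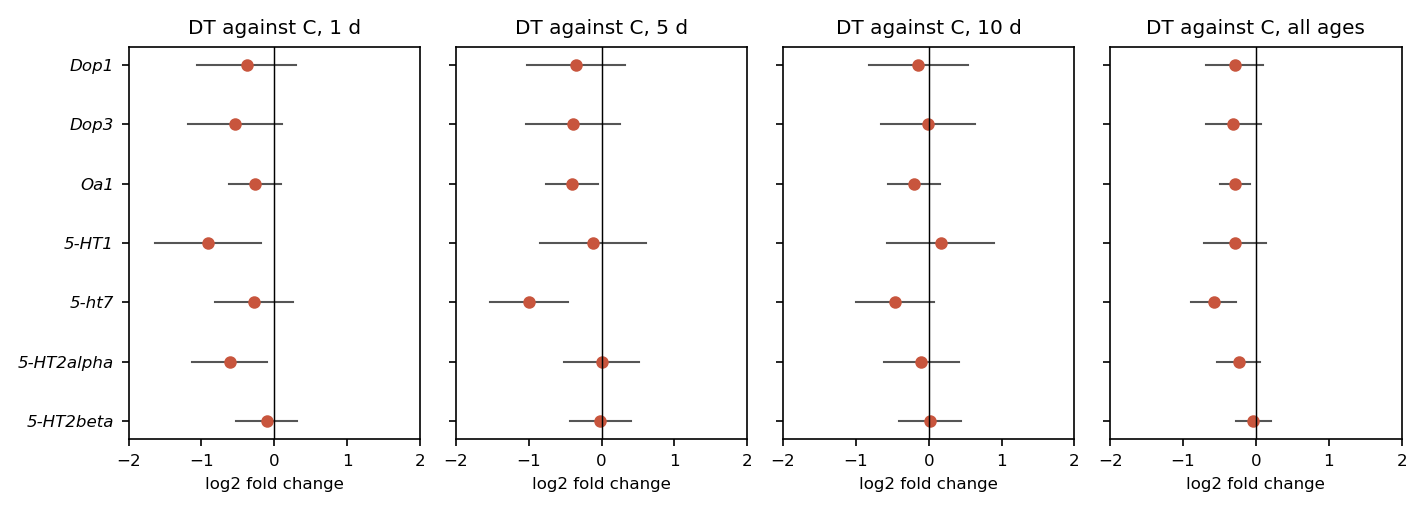
Log2 fold change (x axis) of DT against C for the 7 receptor genes (y axis) at each age and over all ages; points are limma estimates and lines their 95% intervals. The interval of 5-ht7 at 5 d, -1.53 to -0.46, lies wholly under 0, and no estimate passed an adjusted p of 0.05.

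FPKM as deposited gave another picture of these differences, since the median of all genes itself differed between the groups on that scale. This median was -0.67 for DT against C at 1 d, -0.73 at 5 d and 0.29 at 10 d, and 1.20 from 1 d to 10 d in DT. On that scale all 7 receptors were called in DT from 1 d to 10 d, as were 54.3% of features. The changes were between 1.13 and 2.23, of which Dop1, Dop3, Oa1, 5-HT1 and 5-HT2alpha were above the median of all genes and 5-ht7, at 1.198, and 5-HT2beta, at 1.13, were below it. By limma 0 of 7 were called for DT against C at 1 d (0.0146% of features) or at 5 d (0.189%), where 5-ht7 was at -1.62 (adjusted p = 0.064).

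Shares of the summed level of the 7 genes do not depend on the scaling. 5-HT1 made up the largest share of the sum in every group except C_10d, with means in C of 28.1% at 1 d and 34.2% at 5 d, and in DT of 21.7% at 1 d, 37.4% at 5 d and 24.9% at 10 d. In C_10d it held 20.8% against 23.5% for Dop1. 5-ht7 held 4.32% ± 1.32 in DT_5d (SD, n = 3), its lowest share, against 7.98% ± 1.21 in C_5d, and the libraries of these groups did not overlap. 5-HT2beta had its largest shares at 1 d, 10.8% in C and 14.2% in DT, while the sum of the 7 genes was lowest in DT_1d, with 5.06 ± 0.963 scaled FPKM, and highest in C_5d, with 9.83 ± 1.55.

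**Figure D4:**
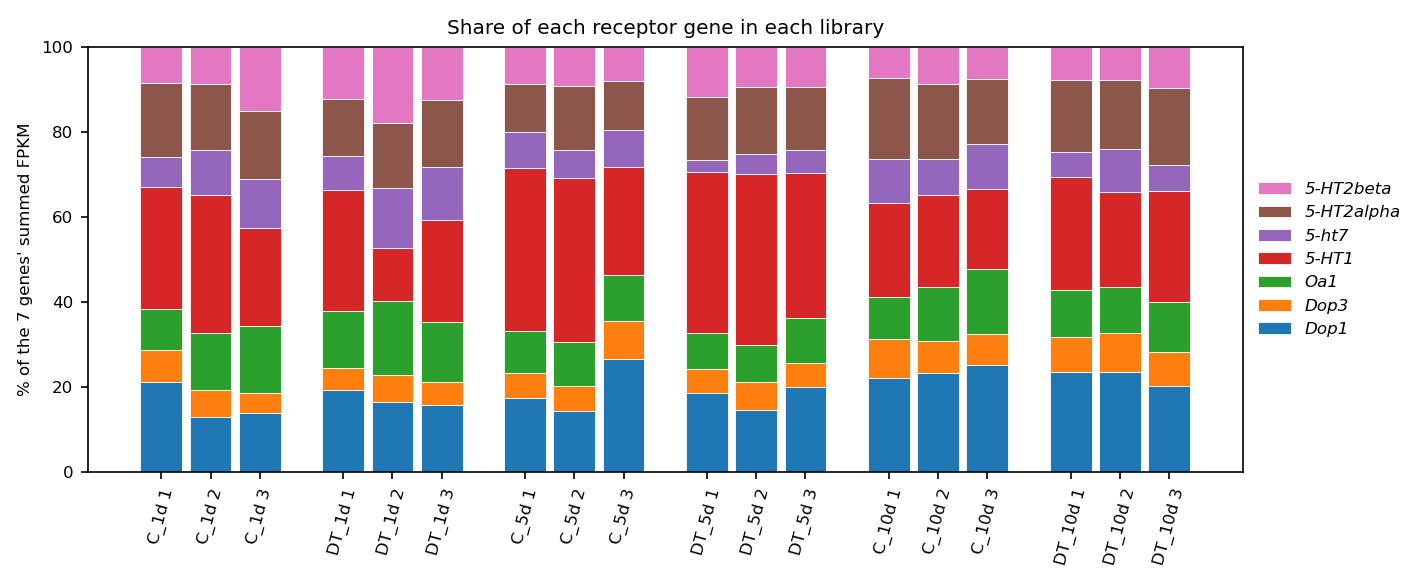
Share of each receptor gene in the summed FPKM of the 7 genes (y axis, percent, from 0 to 100) in each of the 18 libraries (x axis), 1 stacked bar per library. The segment of 5-HT1 is widest in DT_5d, with a mean of 37.4%, and that of 5-ht7 is narrowest there, with a mean of 4.32%.

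Dop1 and Dop3 were the receptor genes whose levels ran most closely together over the 18 libraries, with a Pearson's r of 0.93, and of 0.83 for the deviations from the group means. Over all 21 pairs of receptors r was between -0.23 (5-ht7 and 5-HT2beta) and 0.93, with a median of 0.46. These values are descriptions, as libraries of a group share age and treatment. Among genes with a mean of at least 1 scaled FPKM, the 3 whose levels were most like those of Dop1 were LOC409077 (r = 0.95), LOC408988 (r = 0.94) and Nrx-1 (r = 0.93), the last named for neurexin, a presynaptic adhesion protein. For Dop3 they were LOC408835 (r = 0.96), LOC408865 (r = 0.95) and Pkc (r = 0.95), the last named for protein kinase C. These names depend on the measure. By Spearman's rho 0 of the 3 genes were kept for Dop1, 1 of 3 for Dop3, 5-ht7 and 5-HT2alpha, and 2 of 3 for Oa1, 5-HT1 and 5-HT2beta. 5-HT2beta had the least similar neighbours, with r of 0.73 or lower over the same 18 libraries. For Oa1 the highest r was 0.92 (LOC413793), for 5-HT2alpha 0.92 (LOC724433), for 5-HT1 0.83 (LOC409272) and for 5-ht7 0.83 (LOC411176).

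DopR2 and TyrR were measured at levels like those of the 7. DopR2, a dopamine receptor that raises cyclic AMP, had 0.810, 0.593 and 0.782 scaled FPKM in DT_1d and 1.55, 1.19 and 1.41 in DT_10d without overlap, a change of 0.84 (SE 0.31, adjusted p = 0.048) that stayed under the limit of 1. TyrR, a tyramine receptor that lowers cyclic AMP, had 0.979, 0.803 and 1.13 in DT_1d and between 1.497 and 1.91 in DT_10d, a change of 0.70 (SE 0.30, adjusted p = 0.086). C_5d replicate 3 was the highest library for both, with 1.60 and 2.86 scaled FPKM. Neither was called in any comparison of the scaled values, and with FPKM as deposited both were called from 1 d to 10 d over both treatments, as were 25.7% of features (1.18 for DopR2 and 1.21 for TyrR).

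Of the 6 pathway genes followed (DopR2, TyrR, TyHyd, Tbh, Dat and Ac3), 1 was called higher and 1 lower from 1 d to 10 d over both treatments (8.73% of features called), and likewise from 1 d to 5 d (4.21%) and from 1 d to 10 d in DT (14.3%), whereas 0 were called for DT against C at any age. The gene called higher was Dat, the dopamine transporter, which returns dopamine to the cell that released it. It had 7.86, 2.31 and 2.32 scaled FPKM in C_1d, 2.87, 2.19 and 2.83 in DT_1d, 8.76, 8.72 and 10.6 in C_10d and 7.99, 9.09 and 8.51 in DT_10d, so that every 10 d library was above every 1 d library. Its change from 1 d to 10 d over both treatments was 1.53 (SE 0.24, adjusted p = 0.00033), and 0.96 (adjusted p = 0.0038) when scaled to neuron markers, under the limit of 1.

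The gene called lower was TyHyd, tyrosine hydroxylase, which makes the precursor of dopamine and also serves the tanning of the cuticle. It had 18.9, 65.0 and 68.6 scaled FPKM in C_1d, 64.6, 102 and 74.5 in DT_1d, 19.6, 24.5 and 26.9 in C_10d and 19.6, 24.5 and 18.8 in DT_10d. C_1d replicate 1 was the only 1 d library within the 10 d range. The change of TyHyd over both treatments was -1.41 (SE 0.27, adjusted p = 0.0014), and -1.71 without C_1d replicate 1. Tbh, tyramine beta-hydroxylase, which makes octopamine, had a change of 0.58 (SE 0.19, adjusted p = 0.030), and Ac3, an adenylyl cyclase that makes cyclic AMP, one of 0.48 (SE 0.16, adjusted p = 0.029), both under the limit of 1.

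The 5 lncRNA transcripts listed under receptor genes were at very low levels in the 17 libraries used for lncRNAs. The 3 under 5-HT1 reached at most 0.276 FPKM as deposited, and the 2 under 5-ht7 reached 0.401 and 0.640, both in C_10d replicate 1, with medians of 0 and 0.0010. Only TCONS_00071867 and TCONS_00071868, both under 5-HT1, passed the filter on low values, and neither was called in any comparison. The lowest unadjusted p was that of TCONS_00071868 from 1 d to 10 d over both treatments, with a change of 0.65 (SE 0.27, adjusted p = 0.078). The highest value of this transcript, 0.233 FPKM as deposited, was in DT_10d replicate 1, whose lncRNA values equalled those of DT_1d replicate 1.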

How the data were processed

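Brain RNA-seq of 6 groups with 3 libraries each was analysed, grouped from the sample labels. The authors used Hisat2 for alignment (Amel_HAv3.1), StringTie for assembly and Cuffmerge for merging, and deposited FPKM values from Cuffdiff. How Cuffdiff normalized between libraries is not given in the sources used here. Every mRNA of a gene carried the value of the gene (24419 rows, 0 genes with unequal rows), so genes were analysed. All 6760 lncRNA values of DT_1d replicate 1 equalled those of DT_10d replicate 1 (5002 of them above 0, against at most 2 for any other pair), and those of DT_1d replicate 1 were left out, which left 17 libraries for lncRNAs. Which of these libraries the shared values belong to was not tested. The 18 libraries held between 9443 and 9696 genes above 0. Low values were compared in 153 library pairs, and at most 2.68% of at least 358 genes under 0.2 FPKM shared 1 ratio, so reads were not recovered. The study lists reads per library, which are not used here, and the number of reads behind each value is not known.

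Libraries were scaled by the median ratio over the 9119 genes above 0 in every library. limma 3.58.1 (R 4.3.3) was fitted to log2(scaled FPKM + 0.1) with 6 group means and eBayes with trend (prior degrees of freedom 3.432), for features that reached 0.1 FPKM in 3 or more libraries (9316 genes and 4174 lncRNAs). The labels do not say whether libraries of a group came from separate cages, so p-values measure only the spread between these libraries, which may be technical. Every p in the text is from limma and two-sided. Summaries used Python 3.11.15, numpy 2.4.6, pandas 2.3.3 and matplotlib 3.10.9. The procedure was tested on simulated data with known changes. Genes named are all receptors of the rule, the fixed lists of pathway and marker genes that carried a symbol in RefSeq, and the 3 genes most like each receptor or the first of them. The design had named pathway and marker genes also by product description; the reference table holds symbols and synonyms only, so 35 symbols were used. The receptors and lists were chosen with earlier results of these data known. Alternatives were FPKM as deposited, quantile normalization, scaling to neuron markers, pseudocounts of 1 and 0.01, no filter, a mean of at least 0.5, a replicate block, no trend, genes alone, no limit on the fold change, unadjusted p, only the libraries of a comparison, Spearman's rho for likeness, and each library left out in turn. Leaving out both C_1d replicate 1 and C_5d replicate 3 was chosen after seeing the data.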

Additional observations from a re-analysis of the deposited data

How the results depend on the processing

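The reads behind each FPKM value were not recovered, so precision rests on 3 libraries per group. Differences below 1 on the log2 scale could not be called under the threshold used, whatever their adjusted p. The smallest difference that could be detected was not tested. The number of receptor genes called changed as follows, with the share of all features called in brackets; the cause was not tested. From 1 d to 10 d in DT it was 7 with FPKM as deposited (54.3%), 0 with quantile normalization (11.9%), with scaling to neuron markers (24.8%) and with a pseudocount of 1 (6.62%), 4 without a limit on the fold change (30.1%), and between 1 and 3 when 1 library was left out (11.3% to 13.6%). From 1 d to 10 d over both treatments it was 4 with FPKM as deposited (25.7%), 2 with a pseudocount of 0.01 (11.8%), 3 without a limit on the fold change (32.7%), between 0 and 1 with 1 library left out (7.19% to 11.6%), and 1 without both C_1d replicate 1 and C_5d replicate 3 (11.7%). From 1 d to 10 d in C it was between 0 and 1 with 1 library left out (0.119% to 8.78%) and 1 without those 2 libraries (9.13%). From 1 d to 5 d it was 0 with scaling to neuron markers (6.72%) and with a pseudocount of 1 (1.76%), and between 0 and 1 with 1 library left out (2.93% to 7.29%). For DT against C at 5 d it was between 0 and 1 with 1 library left out (0.0895% to 1.5%), and for the difference of the age changes it was 1 at an unadjusted p (6.28%).

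The following estimates changed sign, nearly all of them small. With FPKM as deposited, DT against C was -0.72 for 5-HT2alpha at 5 d, and at 10 d it was 0.27 for Dop3, 0.15 for Dop1, 0.080 for Oa1 and 0.19 for 5-HT2alpha. The change from 1 d to 10 d in C was 0.14 for 5-HT1 and 0.13 for 5-HT2beta, that from 5 d to 10 d was 0.28 and that from 1 d to 10 d over both treatments 0.63 for 5-HT2beta, and the difference of the age changes was 0.65 for 5-ht7. With quantile normalization, DT against C at 1 d was 0.029 for 5-HT2beta, the change from 1 d to 10 d in DT was -0.024 for 5-ht7 and -0.13 for 5-HT2beta, that from 1 d to 5 d was -0.029 for Oa1, and the difference of the age changes was -0.036 for Oa1 and -0.0059 for 5-HT2beta. With scaling to neuron markers, DT against C at 5 d was 0.11 for 5-HT1 and 0.20 for 5-HT2beta, and for 5-HT2beta -0.12 at 10 d and 0.017 over all ages. The change from 1 d to 10 d in C was -0.091 for 5-ht7, -0.16 for Oa1 and -0.051 for 5-HT2alpha, in DT -0.46 for 5-ht7, -0.29 for Oa1 and -0.58 for 5-HT2beta, and over both treatments -0.28 for 5-ht7, -0.11 for 5-HT1 and -0.22 for Oa1. From 1 d to 5 d it was -0.27 for Oa1 and -0.15 for 5-HT2beta, and the difference of the age changes was -0.14 for Oa1 and -0.085 for 5-HT2beta. With a pseudocount of 1, DT against C at 5 d was -0.000902 for 5-HT2alpha. Without both C_1d replicate 1 and C_5d replicate 3, DT against C at 5 d was 0.0010 for Dop1 and 0.043 for 5-HT2beta, the change from 1 d to 10 d in C was 0.092 for 5-HT1, that from 1 d to 5 d was -0.028 for Oa1, and the difference of the age changes was -0.14 for Dop1.

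With 1 library left out at a time, DT against C at 5 d lay between -0.16 and 0.13 for 5-HT2alpha, between -0.14 and 0.14 for 5-HT2beta, between -0.56 and 0.0010 for Dop1 and between -0.26 and 0.068 for 5-HT1. At 10 d it lay between -0.19 and 0.18 for Dop3, between -0.30 and 0.057 for 5-HT2alpha, between -0.034 and 0.30 for 5-HT1 and between -0.13 and 0.11 for 5-HT2beta, and over all ages between -0.083 and 0.018 for 5-HT2beta. The change from 1 d to 10 d lay between -0.41 and 0.093 for 5-HT1 in C, between -0.19 and 0.057 for 5-HT2beta in C, between -0.068 and 0.27 for 5-ht7 in DT, between -0.026 and 0.10 for 5-HT2beta in DT, and between -0.080 and 0.045 for 5-HT2beta over both treatments. That from 1 d to 5 d lay between -0.021 and 0.11 for Oa1. The difference of the age changes lay between -0.14 and 0.49 for Dop1 and between -0.023 and 0.23 for 5-HT2beta.

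Replicate numbers were not treated as pairs in the main fit. The correlation of same-numbered C and DT libraries in their deviations from the group means lay between -0.14 and 0.26. That of libraries with unlike numbers lay between -0.29 and 0.25. With 3 libraries per group these values cannot show whether the libraries were paired. With the replicate number as a block the count of receptors called was 2 from 1 d to 10 d in DT (13.6% of features) and 1 from 1 d to 5 d (3.88%). It was 0 elsewhere (0.00741% to 8.41%), and all these counts were as without the block. The alternatives of no filter, a mean of at least 0.5, no trend, genes alone and only the libraries of a comparison changed none of the counts of receptors called.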
